A study of Mus musculus with 7 samples.

Results

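The bins described here are 605 stretches of 500 bp of the mouse genome (build mm9) that gave high reporter output with the SCP1 promoter and not with the pPGK promoter in the mouse immature T cell line P5424. They were chosen from 30857 bins that held at least 50 input reads with each of 3 promoters, so they make up 1.96% of the bins measured. In the assay, CapStarr-seq, DNA fragments from DNase hypersensitive sites are captured and cloned into a plasmid in which each fragment becomes part of the transcript it may regulate. Reads of a fragment in reporter RNA, divided by its reads in the plasmid input, rank fragments by their output. The libraries compared were reporter RNA with SCP1, with pPGK under the label PMA_I, with pPGK, and with a promoter labelled pR-Ea, and the inputs of SCP1, pPGK and pR-Ea. Each group held 1 library, so no difference below has a replicate check, no p-value is given, and every comparison is between libraries rather than between conditions. The treatment field of the labels names PMA and ionomycin for all 7 samples, and only the title of 1 pPGK library sets it apart as PMA_I. The pPGK PMA_I library has no input of its own and was divided by the pPGK input.

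An enhancer acts through a core promoter, and core promoters differ in the enhancers they respond to. SCP1, the super core promoter 1, is a synthetic promoter that combines several core promoter elements, among them a TATA box and an initiator. The promoter of the phosphoglycerate kinase gene, pPGK, drives a housekeeping gene of glycolysis and lacks a TATA box. PMA is a phorbol ester that turns on protein kinase C. Ionomycin lets calcium into the cell, and the pair is widely used to imitate T cell receptor stimulation. The sources used here do not say what the pR-Ea promoter is.

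Activity is the log2 ratio of reporter to input reads in a bin, with a pseudocount of 1 and each count scaled to its total over the 30857 bins. An activity of 0 is therefore the average of the measured bins and not the output of an empty plasmid. A bin was chosen if its activity was at least 1 with SCP1 and below 0.8 with pPGK, so the SCP1 and pPGK values are given as a description. The kept bins held 35555069 SCP1 reporter reads over 28058715 input reads, 27252452 pPGK reporter reads over 11423829, and 29878933 pR-Ea reporter reads over 11027947. The pPGK PMA_I library was compared at positions that neither pPGK file lists under a mapping quality score of 30, where the kept bins held 27566223 pPGK PMA_I and 25497043 pPGK reporter reads. The standard error over distinct read positions within a bin (SE) covers sampling within 1 library and not variation between cultures. Counting intervals are exact (Clopper-Pearson, 95%) and also cover counting error alone, since PCR copies are not separate molecules.

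SCP1 output alone was high in 1165 bins, or 3.78% of those measured, and 560 of them also reached 0.8 with pPGK. The other 605 are the SCP1-high bins. Their SCP1 activity had a median of 1.15 and ranged up to 2.74, and 354 of them lay below 1.2, close to the limit. There were 84 bins at 1.5 or more and 14 at 2 or more. The pPGK activity of the same bins had a median of 0.46 and ranged between -2.16 and 0.80. By the rule 0 of the 605 reached 1 with pPGK, beside 3.84% of all bins, and 8 (1.32%) were at -1 or below, beside 9.78%, and nothing is read from either. The pPGK activity was below 0 in 102 bins, between 0 and 0.5 in 234, and from 0.5 up to the limit in 269. Most of these sites thus had pPGK output above the average of the measured bins as well, at a lower level than with SCP1. The SCP1 minus pPGK difference in activity had a median of 0.77, with a median SE of 0.38, and was at least 1 in 208 bins. It exceeded 2 SE in 318 of the 605 bins. By counting error alone, the interval of the SCP1 activity lay above 1 and that of the pPGK activity below 0.8 in 149 bins.

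**Figure D1:**
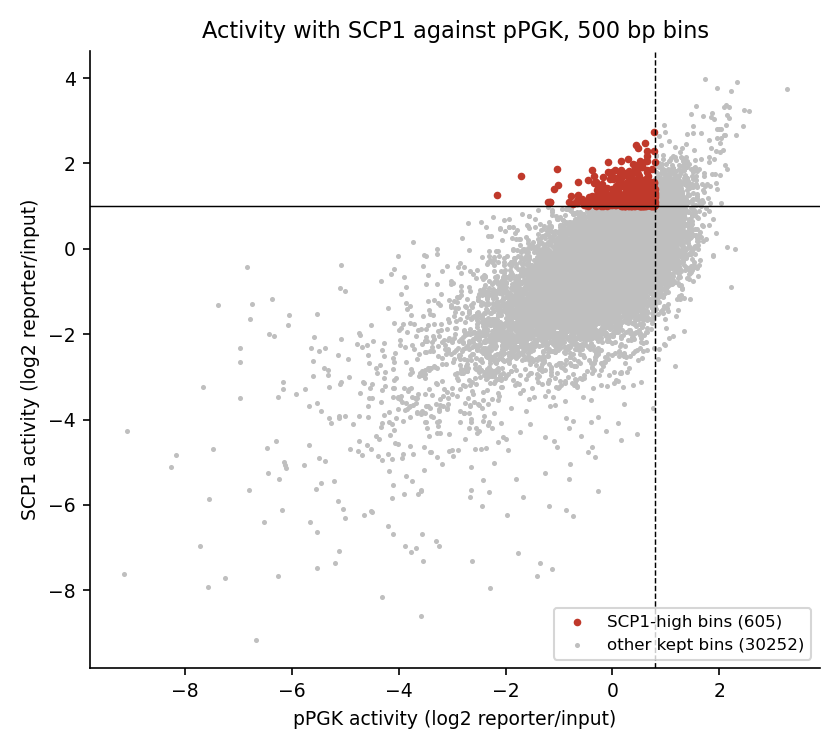
Activity with SCP1 (vertical axis, log2 reporter over input) against activity with pPGK (horizontal axis, log2) for 500 bp bins; each point is 1 bin. The 605 SCP1-high bins (red) lie above the solid line at 1 and left of the dashed line at 0.8, on the edge of the cloud of the other bins.

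The bins at the edges of the rule show how fine it is. Of bins with at least 200 input reads with each promoter, the one just inside the SCP1 limit was chromosome 6, 71444001 to 71444500, with an SCP1 activity just over 1. The one just outside was chromosome 2, 119613001 to 119613500, with an SCP1 activity of 0.998. At the pPGK limit, chromosome 15, 31047001 to 31047500, lay inside with a pPGK activity of 0.797, and chromosome 15, 101676501 to 101677000, lay outside with 0.802.

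The 10 leading bins, taken by the lower counting bound of SCP1 activity among 160 bins with at least 200 input reads with each promoter, had SCP1 activities between 1.87 and 2.74. In each of them SCP1 stood at least 1.03 above the highest of the other 3 libraries. Their SCP1 reads were spread over many positions. The position with most reads held between 3.08% and 10.5% of the SCP1 reporter reads, and the reads lay on 170 to 465 distinct positions.

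The leading bin was chromosome 1, 130487501 to 130488000. It held 32746 reporter over 3869 input reads with SCP1, an activity of 2.74 (SE 0.11), and 2924 over 709 with pPGK, an activity of 0.79 (SE 0.12). With pR-Ea it held 2000 over 785 reads, an activity of -0.09 (SE 0.08), and its pPGK PMA_I activity was 0.41 (SE 0.12). The same stretch of DNA thus had the highest SCP1 activity of the 605 bins, was moderately above the average with pPGK and lay close to it with pR-Ea. Its pPGK activity was just under the limit of 0.8, and the counting interval, 0.67 to 0.91, spanned that limit. By strand, the pPGK activity was 0.69 on the plus and 0.93 on the minus strand. Both neighbouring bins met the rule too, with SCP1 activities of 1.53 (SE 0.42) at 130487001 to 130487500 and 1.18 (SE 0.55) at 130488001 to 130488500. In those neighbours the pPGK activities were 0.20 (SE 0.43) and 0.43 (SE 0.32).

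The second bin, chromosome 2, 164530501 to 164531000, held 16085 reporter over 2348 input reads with SCP1, an activity of 2.43 (SE 0.09), and 9294 over 2880 with pPGK, an activity of 0.44 (SE 0.11). Its SCP1 activity differed between strands, at 0.92 for fragments on the plus strand and 2.59 for those on the minus strand. In all strand values given here, a 5' end listed on both strands counts as minus. Chromosome 8, 127768501 to 127769000, had the most SCP1 input reads of the 10. It held 29899 reporter over 6105 input reads with SCP1, an activity of 1.95 (SE 0.07), with 1.90 on the minus strand and slightly more on the plus strand. With pPGK the strands of this bin differed, at 1.43 on the plus strand, above the limit of the rule, and -0.67 on the minus strand. Its other activities were 0.92 (SE 0.10) with pPGK PMA_I, 0.55 (SE 0.14) with pPGK, and 0.32 (SE 0.05) for the pR-Ea library.

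Further leading bins are given with their other libraries. Chromosome 8, 125306001 to 125306500, held 11327 reporter over 2418 input reads with SCP1, an activity of 1.89 (SE 0.16), and its pR-Ea activity was 0.57 (SE 0.06), above its pPGK activity of 0.42 (SE 0.21). Its pPGK activity was 1.26 on the plus and -0.77 on the minus strand. Chromosome X, 166436001 to 166436500, was at 1.95 (SE 0.23) with SCP1, 0.42 (SE 0.11) with pPGK and, close to the average, -0.04 (SE 0.09) for pR-Ea. Chromosome 18, 20774501 to 20775000, was at 2.30 (SE 0.20) with SCP1 from 1368 over 218 reads, -0.51 (SE 0.24) with pPGK PMA_I, 0.77 (SE 0.09) with pPGK and 0.62 (SE 0.10) for pR-Ea. Its log2 ratio of pPGK PMA_I over pPGK reporter reads, 713 over 1664, was -1.33, one of the 5 lowest. In the bins on X and 18, 71.1% and 60.2% of the pPGK input reads lay at positions with a score under 30, which were left out.

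The bin with the largest SCP1 minus pPGK difference among the 160 was chromosome 15, 102301001 to 102301500. It held 11628 reporter over 2503 input reads with SCP1, an activity of 1.87 (SE 0.15), and 2464 over 2120 with pPGK, an activity of -1.04 (SE 0.45). It was below the average with pR-Ea as well, with 3610 over 2551 reads and an activity of -0.94 (SE 0.08). This site was high with SCP1 and below average with every other library, pPGK PMA_I included, at -0.97 (SE 0.35). Fewer than 20 of its pPGK input reads lay on the plus strand, so its pPGK value rests almost wholly on the minus strand, at -1.05. The pPGK PMA_I value was divided by that same input. Chromosome 4, 128307501 to 128308000, was also high with SCP1 alone, with activities of 1.12 (SE 0.13) with SCP1, -0.55 (SE 0.11) with pPGK PMA_I, -0.53 (SE 0.14) with pPGK, and -0.79 (SE 0.08) for pR-Ea. Chromosome 5, 112167501 to 112168000, was at 1.15 (SE 0.22) with SCP1, -0.26 (SE 0.15) with pPGK PMA_I and -0.59 (SE 0.21) with pPGK. With pR-Ea it was at 0.63 (SE 0.13), so with the strands together only the pPGK libraries were below average there. By strand, its pPGK activity was 0.51 on the plus and -1.27 on the minus strand. Of its pPGK reads, 50.3% (reporter) and 36.6% (input) lay at positions with a score under 30, which were left out.

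**Figure D2:**
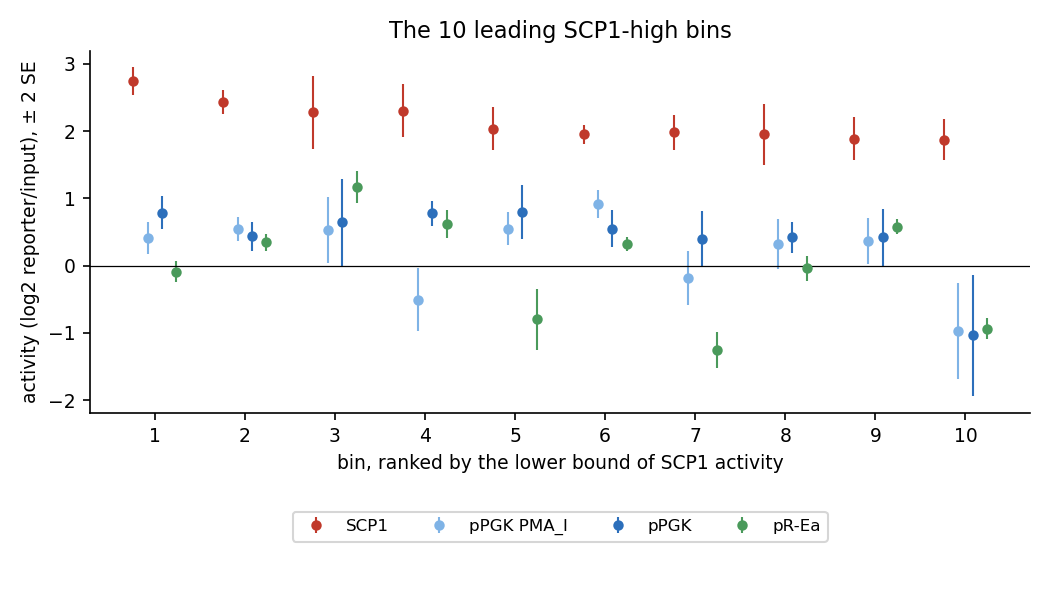
Activity (vertical axis, log2 reporter over input) of the 10 leading SCP1-high bins, ranked along the horizontal axis by the lower counting bound of their SCP1 activity; points are 1 library each and bars are 2 SE over read positions to either side. SCP1 lies at or above 1.87 in all 10, while pR-Ea spreads between -1.26 and 1.17.

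The pR-Ea reads took no part in choosing the bins beyond the input minimum, and they give an outside view of the same sites. The median pR-Ea activity was 0.20 in the SCP1-high bins and -0.02 in all measured bins, so the SCP1-high bins sat slightly above the average. At the 2-fold line, 13 of 605 bins (2.15%, 95% interval 1.15% to 3.65%) had a pR-Ea activity of at least 1, beside 0.859% of all bins. At the other end 14 of 605 (2.31%, interval 1.27% to 3.85%) were at -1 or below, beside 8.4% of all bins. These intervals take bins as independent, which neighbouring bins are not. Of the 605 bins, 391 were above 0 with pR-Ea, beside 14954 of all 30857. With pR-Ea, 601 of the 605 were lower than with SCP1, and 412 were lower than with pPGK. The pR-Ea activity was higher than that of SCP1 in 4 of the 605 and 17999 of all bins. It was higher than that of pPGK in 193 of the 605 and 13866 of all bins. The counts against SCP1 and pPGK share the values that chose the bins.

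The same view of the 2 most similar sets sets this level in context. The 560 bins high with SCP1 that also reached 0.8 with pPGK had a median pR-Ea activity of 0.37, with 12 (2.14%) at 1 or above. The 729 bins at 1 or above with pPGK and below 0.8 with SCP1 had a median of 0.26, with 12 (1.65%) at 1 or above. Above 0 with pR-Ea were 450 of the 560 and 527 of the 729, beside 391 of the 605 SCP1-high bins. In the same order, 6 (1.07%) of the 560 and 11 (1.51%) of the 729 were at -1 or below. A share below the 8.4% of all bins was thus not particular to the SCP1-high bins. All 3 sets were thus moderately above the average with pR-Ea, and with 1 library each the differences between them were not tested. Within the SCP1-high bins the pR-Ea median was -0.07 in the 102 bins with pPGK activity below 0, 0.14 in the 234 between 0 and 0.5, and 0.32 in the 269 above that. It was 0.11 in the 84 bins at 1.5 or more with SCP1, 0.16 in 167 between 1.2 and 1.5 and 0.24 in 354 below 1.2. The band with the most SCP1 output thus had the lowest pR-Ea median, while across the pPGK bands the pR-Ea medians followed the order of pPGK.

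**Figure D3:**
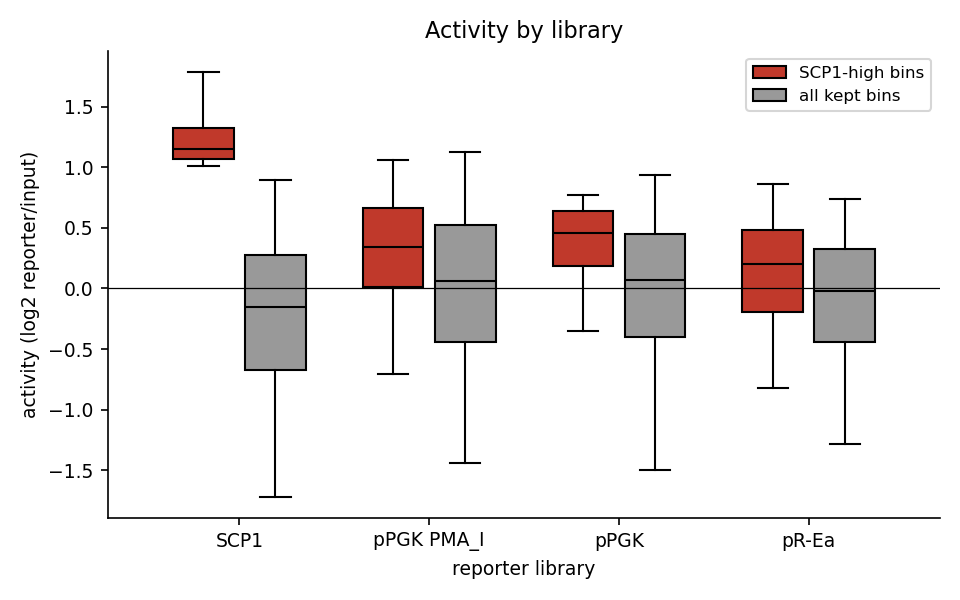
Activity (vertical axis, log2 reporter over input) in the 4 reporter libraries (horizontal axis) for the 605 SCP1-high bins (red, left of each pair) and all 30857 kept bins (grey, right); boxes show quartiles and median, whiskers the 5th and 95th percentiles. The rule sets the SCP1 and pPGK boxes; with pR-Ea the medians are 0.20 and -0.02.

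Among the bins with at least 200 input reads, chromosome 17, 85988501 to 85989000, had the highest pR-Ea activity. It held 2732 reporter over 448 input reads with pR-Ea, an activity of 1.17 (SE 0.12). With SCP1 it held 2276 over 369 reads, an activity of 2.28 (SE 0.27), and with pPGK 1145 over 307, an activity of 0.64 (SE 0.33). This was a site active with SCP1 and pR-Ea, and less so with pPGK. The next 4 had pR-Ea activities from 0.89 to 0.998, and SCP1 activities from just over 1 up to 1.44. They lay at chromosome 6, 71444001 to 71444500, chromosome 18, 25765001 to 25765500, chromosome 9, 121553501 to 121554000, and chromosome 4, 133308501 to 133309000. With smaller inputs, and chosen after their values were seen, chromosome 10, 24741001 to 24741500, reached 2.63 (SE 0.21) from 3198 over 190 reads, and chromosome 5, 147804001 to 147804500, reached 2.31 (SE 0.20) from 3079 over 228. In both of these pR-Ea output was close to or above that of SCP1, at 1.74 and 2.37, while pPGK was at 0.19 and 0.48.

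The lowest pR-Ea activity among bins with at least 200 input reads was at chromosome 13, 23853001 to 23853500. It held 756 reporter over 667 input reads with pR-Ea, an activity of -1.26 (SE 0.13), against 7212 over 1438 with SCP1, an activity of 1.98 (SE 0.13). The same bin had activities of -0.19 (SE 0.20) with pPGK PMA_I and 0.40 (SE 0.21) with pPGK. Chromosome 6, 86476001 to 86476500, followed with 734 over 548 pR-Ea reads, an activity of -1.02 (SE 0.18), and an SCP1 activity of 1.22 (SE 0.16). Chromosome 15, 31047001 to 31047500, was at -0.80 (SE 0.23) with pR-Ea, 2.04 (SE 0.16) with SCP1 and 0.80 (SE 0.20) with pPGK. In the last of these the pR-Ea activity was 0.40 on the plus and -1.04 on the minus strand. Its pPGK activity was 1.61 on the plus strand, above the limit of the rule, and 0.49 on the minus strand. With the strands together, SCP1 and pR-Ea stood on opposite sides of the average at these 3 sites, with pPGK between them. At chromosome 15, 102301001 to 102301500, also among the 5 lowest and given above, pPGK was not between them but close to pR-Ea.

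The pPGK PMA_I library was compared with the pPGK library at the same sites, as 1 library against 1. The median pPGK PMA_I activity was 0.34 in the SCP1-high bins and 0.06 in all bins. An activity of at least 1 was reached by 41 of 605 bins (6.78%, interval 4.91% to 9.08%), beside 7.43% of all bins, so the share was close to that of all bins. An activity of -1 or below was found in 24 (3.97%), beside 9.83%, and in 3 of the 405 bins with at most 10% of their pPGK reads at positions with a score under 30 (0.741%, beside 6.63% of all such bins). The pPGK PMA_I activity shares its input with pPGK, whose value was bounded by the rule, so these counts are only in part independent of it.

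The log2 ratio of reporter reads, pPGK PMA_I over pPGK, had a median of -0.03 in the SCP1-high bins and 0.05 in all bins. Its denominator, the pPGK reporter reads, entered the rule, which bounded pPGK activity from above. The ratio and its shares are therefore a description. It was at least 1 in 4 bins (0.661%, interval 0.18% to 1.68%), beside 1.02% of all bins, and -1 or below in 21 (3.47%, interval 2.16% to 5.26%), beside 0.739%. These 21 bins stood out in mapping quality. In 19 of them over 50% of the pPGK input reads lay at positions with a score under 30, which were not used, against 53 of the other 584. Their median share of such reads was 85.1%, against 0.978% in the others. In the 405 SCP1-high bins with at most 10% of pPGK reporter and of input reads at such positions, 1 bin (0.247%) was at -1 or below, beside 0.308% of all such bins, and 3 (0.741%) were at 1 or above, beside 0.64%. Both shares were close to those of all such bins, and the median was -0.03. Of the 605 bins, 9 held fewer than 50 pPGK input reads at the positions compared, and of the other 596, 17 were at -1 or below. The part that mapping played in the 21 lower values was not tested.

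Among bins with at least 200 input reads, the highest ratios were at chromosome 5, 112167501 to 112168000, with 2041 pPGK PMA_I and 1224 pPGK reporter reads, a log2 ratio of 0.62, and at chromosome 7, 51654501 to 51655000, with 3245 and 2098 reads and a log2 ratio of 0.52. The next 3 had log2 ratios from 0.43 to 0.49. None of the 5 reached a log2 ratio of 1. In the bin on chromosome 5, 36.6% of the pPGK input reads lay at low-score positions, and in the other 4 between 0% and 22.7%. The bin on chromosome 7 had activities of 1.54 (SE 0.11) with SCP1, 0.92 (SE 0.15) with pPGK PMA_I and 0.41 (SE 0.16) with pPGK. The lowest ratios were at the unplaced sequence Un_random, 5249001 to 5249500, with 223 pPGK PMA_I and 3228 pPGK reads (-3.96), and at chromosome 2, 98502001 to 98502500, with 636 and 4084 reads (-2.79). In these 2 bins 65.0% and 94.5% of the pPGK input reads lay at low-score positions. The next 3, with log2 ratios from -2.64 to -1.16, had 60.2% to 89.6% of input reads there.

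**Figure D4:**
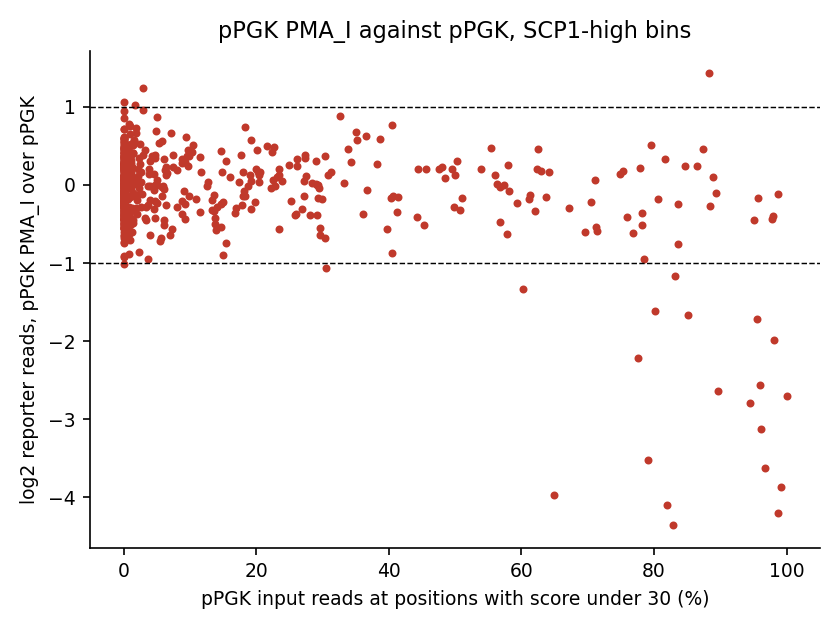
Log2 ratio of reporter reads, pPGK PMA_I over pPGK (vertical axis), against the percentage of pPGK input reads at positions with a mapping quality score under 30 (horizontal axis); each point is 1 of the 605 SCP1-high bins and dashed lines mark 1 and -1. The 21 bins at -1 or below lie mostly on the right, 19 of them above 50%.

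The other values were also read in the bins with few low-score reads. Of the SCP1-high bins 405 of 605 (66.9%) had at most 10% of pPGK reads at low-score positions, as had 66.4% of all bins. In those 405 the median SCP1 minus pPGK difference was 0.77, as in the 605, and the median pR-Ea activity was 0.16. Of them 5 (1.23%) had a pR-Ea activity of at least 1, beside 0.996% of the 20474 such bins in all, and 7 (1.73%) were at -1 or below, beside 5.46%. The share at or above 1 with pR-Ea was near the background in these bins. It rests on 5 bins without an interval, so a change from the 2.15% of the 605 is not shown. The share at or below -1 stayed under that of all such bins.

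The plasmid inputs also differed at these sites. The median log2 ratio of the SCP1 to the pPGK input share was -0.33 in the SCP1-high bins and 0.06 in all bins. By the pPGK band it was -1.22 in the 102 bins with pPGK activity below 0, -0.31 in the middle 234 and 0.01 in the upper 269. In the 405 bins with few low-score reads it was 0.05, beside 0.35 in all such bins. The bins thus held fewer SCP1 input reads relative to pPGK input than the rest did. A low input raises the ratio to it, and its part in the SCP1 minus pPGK difference was not tested. On scaled reporter reads alone, SCP1 exceeded pPGK in 383 of the 605 bins, beside 14168 of all 30857. It did so by at least 2-fold in 214, beside 5632 of all bins, and was lower by at least 2-fold in 108, beside 9118. The SCP1 and pPGK input and reporter reads all entered the rule. These values therefore describe the bins and are no check on the difference. In the 160 bins with at least 200 input reads the input ratio was 0.14, and the median difference in activity was 0.61, with a median SE of 0.24.

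Strand values were read with each 5' end listed on both strands placed on the minus strand. The minus values thus mix such positions with those listed as minus alone, and the strands are not a clean split by orientation. In 553 bins with at least 20 SCP1 input reads on each strand, the median SCP1 activity was 1.17 on the plus and 1.17 on the minus strand. It was above 0 on both strands in 550 of the 553 and at least 1 on both in 356. In 406 bins with such reads on each strand with both promoters, SCP1 activity exceeded pPGK activity on both strands in 353. With pPGK, 183 of 429 bins measured on both strands reached 0.8 on at least 1 strand, so for many bins the pPGK limit held for the 2 strands together and not for each. These values share the reads that chose the bins.

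Most SCP1-high bins had no other SCP1-high bin next to them. The 605 bins formed 577 runs, of which 552 were single bins, 22 were pairs and 3 were runs of 3 adjacent bins. Of the 605, 329 had a neighbouring kept bin and 31 had a neighbour that was high with SCP1 and reached 0.8 with pPGK. The rest of the 605 had no measured neighbour and could only be single. Runs were not counted in all bins or in the similar sets, so single bins are not shown to be particular to the SCP1-high bins. The 3 longest runs were at chromosome 1, around the leading bin, at chromosome 7, 80762501 to 80764000, and at chromosome 9, 3000001 to 3001500. On chromosome 7 the SCP1 activities along the run were 1.05 (SE 0.16), 1.57 (SE 0.30) and 1.12 (SE 0.32), and the pPGK activities 0.64 (SE 0.14), 0.68 (SE 0.37) and 0.04 (SE 0.32). On chromosome 9 at least 98.6% of the pPGK input reads of each bin of the run lay at low-score positions.

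Neighbouring bins that were not SCP1-high rest on other read positions, though their fragments overlap the same DNA. The 317 adjacent kept bins had median activities of 0.45 (SCP1), 0.35 (pPGK) and 0.15 (pR-Ea), against -0.16, 0.07 and -0.02 in all bins. Their median SCP1 minus pPGK difference was 0.14, against -0.17 in all bins. The difference was above 0 in 189 of 317, beside 11693 of all 30857. The excess of SCP1 over pPGK was therefore present next to the chosen bins but much smaller than in them. At 1000 bp the sides differed. The median difference was -0.15 on the side of lower coordinates, with 15 of 44 bins above 0. On the other side it was 0.06, with 30 of 50 above 0. Beside the 560 bins high with both promoters, the 168 adjacent bins had a median difference of -0.07. That set left out every bin at or above 1 with SCP1, so 0 of the 168 reached 1. Of the 317 adjacent bins, 31 did. The medians of 0.14 and -0.07 thus come from sets chosen in unlike ways, and nothing is read from their difference. The SCP1-high bins were kept out of both sets of neighbours by the rule, so these values are a description.

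**Figure D5:**
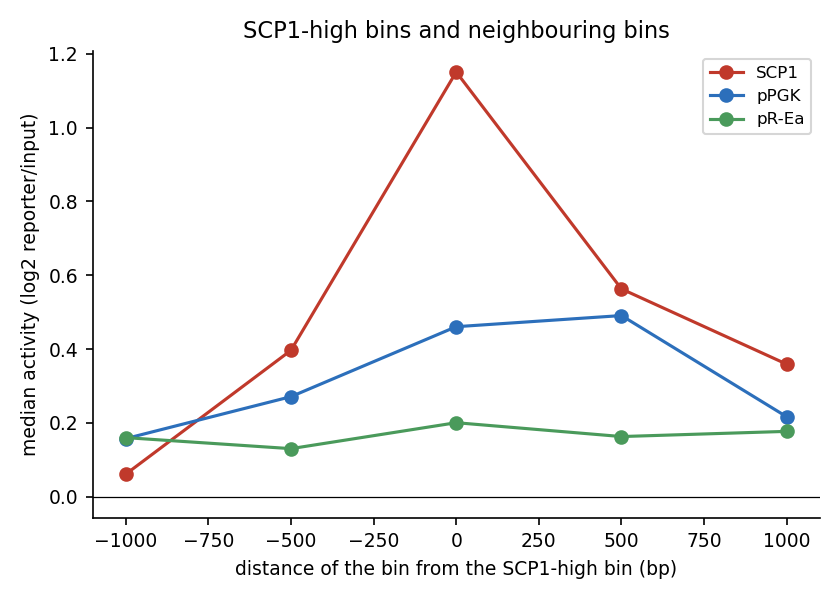
Median activity (vertical axis, log2 reporter over input) of the SCP1-high bins at 0 and of kept bins 500 and 1000 bp to either side that were not SCP1-high (horizontal axis, bp). SCP1 peaks at 1.15 in the chosen bins, which the rule fixes, and lies at 0.40 and 0.56 in the adjacent bins, where pPGK lies at 0.27 and 0.49.

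The bins were spread over the genome. They made up between 1.1% of the kept bins of chromosome 3 and 2.71% of those of chromosome 4 on the numbered chromosomes, and 2.69% on chromosome X. On Un_random 3 of 19 kept bins were SCP1-high. Input reads were fewer than in all bins, and SCP1 reporter reads more. The median bin held 934 SCP1 reporter reads over 298 input reads in the SCP1-high bins, against 561 over 506 in all bins, and 161 pPGK input reads, against 191. Of the 605, 284 had fewer than 100 input reads with at least 1 promoter, and in these the median SE of the SCP1 minus pPGK difference was 0.50.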

How the data were processed

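CapStarr-seq libraries of P5424 cells were used as deposited, 1 library per group, with 4 files for the 7 samples. The submitters' processing notes name bedtools 2.28.0, Bowtie2 and SAMtools, and genome build mm9. No source used here gives aligner settings or the order of steps. Each line of the deposited files holds a fragment of 315 bp, a mapping quality score and 2 whole-number read counts. From the values, the first count was taken as reporter and the second as input: once each 5' end was counted once, the deposited input counts summed to 30248710 in both pPGK files (38625926 and 37726628 over all lines). Deposited scores went down to 30 for SCP1 and for pR-Ea, and down to 0 for both pPGK libraries, where 65.3% (pPGK) and 99.5% (pPGK PMA_I) of reporter reads reached 30.

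Positions with a score of at least 30 were kept. A 5' end listed on both strands, always with equal counts, was counted once, on its first line, which is the minus one. Reads were placed in 500 bp bins by fragment midpoint. The activity, intervals and choice of bins are as given above. pPGK PMA_I was read only at positions that neither pPGK file lists under 30, a choice made after the files were seen, as was the limit of 10% on low-score reads. Named bins were the leading ones by SCP1 activity, SCP1 minus pPGK, pR-Ea activity and pPGK PMA_I over pPGK, the bins nearest the limits and the longest runs. The bins, rules and lists were chosen with earlier results of these data known. Bin coordinates are mm9 and start at 1. Gene names, motifs and sequences of these bins were not used here, because the annotation used belongs to another build, so the planned gene and motif counts were not run. The activity and its counting interval were tested on counts simulated for the kept bins. The score limit, the two-strand rule, the placing of reads in bins and the SE were not part of that test. Analyses used Python 3.11.15, numpy 2.4.6, pandas 2.3.3 and scipy 1.17.1.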

Additional observations from a re-analysis of the deposited data

Results flagged for a closer look

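Some SCP1-high bins stood on the other side of the average with another library, and with 1 library each this difference was not tested. There were 8 bins at or above 1 with SCP1 and at or below -1 with pPGK (1.32%, beside 9.78% of all bins), 14 at or below -1 with pR-Ea (2.31%, beside 8.4%) and 24 at or below -1 with pPGK PMA_I (3.97%, beside 9.83%). The pR-Ea share, which took no part in the rule beyond the input minimum, was below that of all bins. The rule used the pPGK activity, and pPGK PMA_I shares its input, so nothing is read from the other shares. In the 405 bins with few low-score reads, 3 were at or below -1 with pPGK PMA_I. Of the bins with at least 100 input reads with each promoter, the lowest pR-Ea activity was at chromosome 18, 42690001 to 42690500, at 1.32 (SE 0.58) with SCP1 and, for pR-Ea, -2.02 (SE 0.79). This bin was chosen after its values were seen.

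Reads that no comparison used lay in the same bins. Of the pPGK reporter reads in SCP1-high bins, 60.8% lay at positions with a mapping quality score under 30, as did 68.4% of the pPGK input reads. Over the whole pPGK file, 65.3% of reporter and 57.3% of input reads reached 30, so low-score reads were a larger share in these bins. These are pooled reads and rest on a minority of the bins. At most 10% of pPGK reads were low-score in 66.9% of the SCP1-high bins, as in 66.4% of all bins.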

How the results depend on the processing

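Of 18 alternative settings, 3 were chosen after seeing the data. Together they gave 105 values for 6 results, of which 65 were close to those reported and 40 moved; the cause was not tested unless stated. No paired analysis was possible because each group has 1 library, and no replicate could be left out. The number of bins meeting the rule was 605 as reported. It was 1171 with the median ratio of each library set to 0, which by construction moved the all-bin medians of -0.16 (SCP1) and 0.07 (pPGK) to 0, 1336 with an input minimum of 20, 305 with 100, 132 counting distinct positions, 102 with pPGK activity under 0 and 84 with SCP1 activity of at least 1.5. The number at 1 or above with pR-Ea was 29, 53, 8, 2, 0 and 4 in the same order, beside 1.03%, 1.52%, 0.654%, 0.0875%, 0.859% and 0.859% of all bins kept there. With pPGK PMA_I it was 74, 108, 21, 5, 0 and 3, beside 6.23%, 10.7%, 5.87%, 1.71%, 7.43% and 7.43%. With a pseudocount of 5 the pR-Ea number was 7 of 596 (all bins 0.655%), on the plus strand 34 of 875 (1.46%), and without low-score bins 5 of 405 (0.996%). The pPGK PMA_I number was 168 of 556 without a score minimum (all bins 27.4%), 62 of 875 on the plus strand (9.19%), 68 of 722 on the minus strand (10.3%), 23 of 405 without low-score bins (7.55%) and 108 of 605 with the score of its own file alone (14.8%), so the shares of all bins moved as well.

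The median pR-Ea activity was 0.13 with an input minimum of 20, -0.0668 with pPGK activity under 0 and 0.11 with SCP1 activity of at least 1.5. The median pPGK PMA_I activity was 0.72 without a score minimum, 0.58 with its own file's score, 0.43 with an input minimum of 100, 0.25 by distinct positions, 0.19 on the plus and 0.25 on the minus strand, and -0.29 with pPGK activity under 0. The median log2 ratio of pPGK PMA_I over pPGK, -0.03 as reported, was 0.30 without a score minimum, 0.0305 with an input minimum of 20, 0.0625 on the minus strand and 0.0219 with pPGK activity under 0. Placing a 5' end listed on both strands on its plus line gave 607 bins, of which 506 were among the 605. Distinct positions kept 43 of the 605. Of the 605 bins, 144 met the rule in each of 10 settings that keep the bins and the limits, and 15 also by distinct positions. The leading bin on chromosome 1 did not meet it without a score minimum, by distinct positions, without the position with most reads or on the minus strand. Chromosome 15, 31047001 to 31047500, met the rule in 6 of these 11 settings. Depth limits single bins: in the 284 with fewer than 100 input reads with at least 1 promoter, the median SE of the SCP1 minus pPGK difference was 0.50.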
